A study of Sus scrofa with 6 samples.

Results

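The 10 genes described here coat the lipid droplets of the early pig embryo, build the triacylglycerol inside them, or release and burn its fatty acids. They were PLIN2 and PLIN3 on the droplet surface, PNPLA2, its activator ABHD5 and LIPE in lipolysis, DGAT1 and DGAT2 in triacylglycerol synthesis, ACSL3 in fatty acid activation, and CPT1A and CPT2 in entry of fatty acids into mitochondria. They were chosen by gene name as a list of known function, and all 10 were found among 29874 genes, on 30 of 81774 transcript rows. The libraries were mRNA-seq of porcine embryos with 8 cells (Sus scrofa), and the sources used here do not state how many embryos went into each. There were 3 control libraries and 3 libraries with the genotype label LncT KD, from embryos with a cytoplasmic injection of siRNA. By the series title the target is a lncRNA, a long transcript that codes for no protein. All 6 samples carry the same micromanipulation protocol, but the labels do not say what, if anything, the controls were injected with. The sources used here do not say which row of the table is LncT, so its level was not checked, and the knockdowns carry the prefix siL in their titles and SL in the table. Columns with the prefix ST match no title and were not used. What SL and ST stand for is not stated, so that SL is the siRNA against LncT rests on the labels alone.

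Pig oocytes and cleavage embryos are known for being darkened by abundant lipid droplets. In such a droplet a core of neutral lipid is enclosed by a phospholipid monolayer, on which perilipins limit the access of lipases. Triacylglycerol is made by DGAT enzymes from activated fatty acids, and is taken apart by PNPLA2 (also known as ATGL) with ABHD5 (CGI-58) as activator and then by LIPE (hormone-sensitive lipase). The released fatty acids are activated again and handed by the carnitine palmitoyltransferases CPT1 and CPT2 to oxidation in the mitochondrial matrix.

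Values are FPKM, fragments scaled to transcript length and library size, as deposited by the authors for each transcript and summed here over the transcripts of a gene. Relative depth, taken as coverage per FPKM, was 6.29 to 9.41 per library, and total read numbers are unknown. The Spearman correlation over 10417 tested genes was 0.922 between controls 1 and 2, but 0.611 and 0.655 between control 3 and each of them. Control 3 correlated with the knockdowns at 0.9 to 0.941, so its label is in doubt, and whether it is a control cannot be told from the files. Every control mean and SD below includes it under its label. On the log2(FPKM + 1) scale control 3 lay nearer to the mean of the knockdowns than to the mean of controls 1 and 2 for 84.4% of tested genes, and for 5 of the 5 tested lipid genes. Results for the 5 tested lipid genes are therefore given with and without control 3. Markers of oocyte and early embryo were abundant: 11 of 12 listed genes were tested, and their summed level was 1386 to 3082 FPKM in controls and 1434 to 2040 FPKM in knockdowns. Of 12 genes of cumulus and granulosa cells, which surround the oocyte, 11 were in the table and summed to 9.65 to 10.8 FPKM in controls and 9.11 to 13.8 FPKM in knockdowns, with CYP11A1 and LUM listed at 0 in every library. The 7 sperm genes summed to 0.792 FPKM or less, with PRM1, TNP1, ODF1 and ACR listed at 0 throughout. In whole embryos, fewer cells with a transcript and less of it per cell cannot be told apart.

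The 10 genes covered almost the whole range of abundance in the embryo. ACSL3 had the highest mean over the 6 libraries, at 258.6 FPKM and rank 226 of all genes, followed by PLIN2 at 46.3 FPKM, ABHD5 at 23.4 FPKM, CPT1A at 4.45 FPKM and CPT2 at 1.70 FPKM. The means of PLIN3 and PNPLA2 were 0.491 and 0.348 FPKM, those of DGAT1 and LIPE 0.0590 and 0.0498 FPKM, and DGAT2 was listed at 0 in every library. In each library ACSL3 was above PLIN2 and ABHD5, and all 3 were above CPT1A. PLIN2 was above ABHD5 in all 6 libraries, but by little in knockdown 2, at 37.2 FPKM against 35.1 FPKM, and in knockdown 3, at 47.4 FPKM against 44.2 FPKM. CPT1A and CPT2 did change places, with CPT2 higher in controls 1 and 2 and CPT1A higher in the other 4 libraries. The ranges of PLIN3 and PNPLA2 overlapped, as did those of DGAT1 and LIPE.

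**Figure D1:**
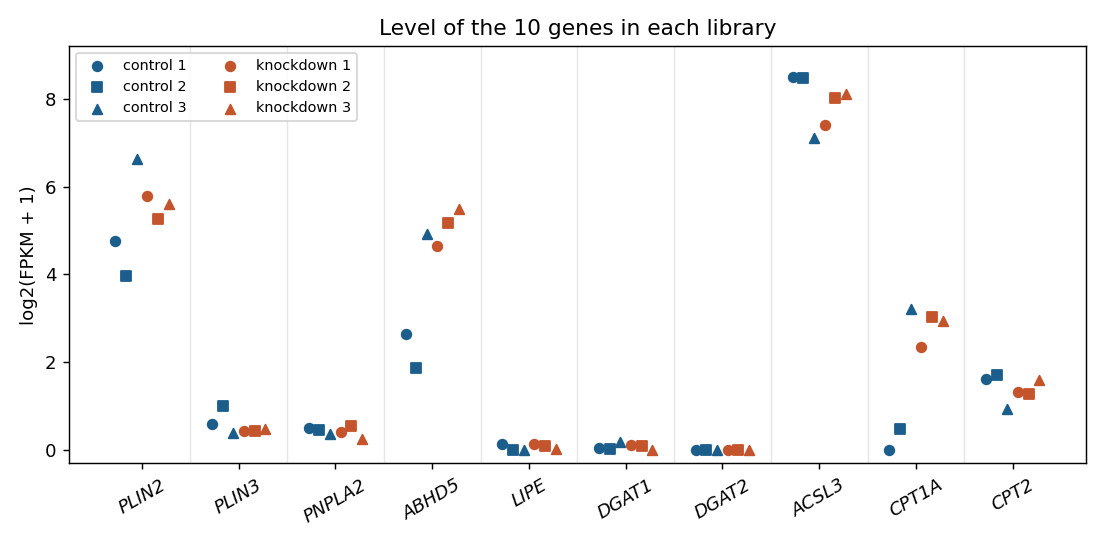
Level of each of the 10 genes on the log2(FPKM + 1) scale, with one point per library, controls in blue and knockdowns in orange, and the replicate number given by the shape. Control 3 (blue triangle) stands away from controls 1 and 2 for PLIN2, ABHD5, ACSL3 and CPT1A, and DGAT2 is at 0 in all 6 libraries.

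The test took in genes whose mean reached 1 FPKM, which left 5 of the 10. With all 6 libraries 0 of these 5 genes passed an adjusted p of 0.05 in limma, against 0.0% of the 10417 genes tested, and 1 of the 5 (ABHD5) and 436 of the 10417 had an unadjusted p under 0.05. Without control 3, limma called 3 of the 5, all of them higher in knockdowns, namely PLIN2, ABHD5 and CPT1A. That omission called 27.4% of all tested genes, 20.2% in the higher and 7.22% in the lower direction. CPT1A was under 1 FPKM in controls 1 and 2 and was tested through the other libraries, so its call adds little to the values. The groups of 3 did not overlap for 0 of the 5 genes, and for 7.24% of all genes tested. The labels do not tell whether replicates are separate embryo collections, so p-values reflect only how much these libraries differ, and that can be technical.

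PLIN2, the perilipin that coats droplets in most cells outside fat tissue (chromosome 1, 203683867 to 203709277, Sscrofa11.1), was at 26.3, 14.7 and 98.4 FPKM in controls 1, 2 and 3. In knockdowns 1, 2 and 3 it was at 54.1, 37.2 and 47.4 FPKM. Every knockdown lay above controls 1 and 2 and below control 3, so the group means were almost equal, at 46.5 FPKM (SD 45.4, n = 3) for controls, against 46.2 (SD 8.52, n = 3) for knockdowns. The log2 change (knockdown minus control, of log2(FPKM + 1) values) was 0.42 (95% interval -1.14 to 1.98, limma adjusted p = 0.853). It was 1.17 without control 3 (limma adjusted p = 0.0319) and -0.16 without control 2 (limma adjusted p = 0.999), and over 16 alternatives the adjusted p was 0.0319 to 0.9998.

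The groups did not overlap in the split of PLIN2 over its transcripts. Of 5 PLIN2 rows, 3 were above 0 in any library. The row XM_005660075.3 was listed at 0 in controls 1 and 2 and stood at 0.232 FPKM in control 3. In knockdowns 1, 2 and 3 it was at 25.6, 18.4 and 24.8 FPKM, above every control. Its log2 change was 4.47 ± 0.29 (SE, 95% interval 3.76 to 5.17, limma adjusted p = 0.00613 over 12013 transcript rows), with 3 of 3 knockdowns higher. This was the only one of 6 tested transcript rows of the 10 genes that passed, where 0.117% of all tested rows passed, 9 higher and 5 lower. The row reached the minimum of 1 FPKM for the test through the knockdowns alone, so it had to differ to be tested, and its call adds little to the values. It was not called without control 1, control 2, knockdown 2 or knockdown 3 (limma adjusted p = 0.0533, 0.0537, 0.0832 and 0.0687), and was called without control 3 or knockdown 1 (0.00357 and 0.0386). The log2 change was 4.38 to 4.61 over these omissions, and 7.25 with a pseudocount of 0.1. Without control 3, 3 of the 6 rows passed, those of ABHD5 and CPT1A beside it, where 13.4% of all tested rows did. The CPT1A row was under 1 FPKM in controls 1 and 2, so a like limit holds for its call.

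The other main PLIN2 row, XM_005660074.3, was at 26.3, 14.7 and 98.2 FPKM in control embryos and at 28.5, 18.3 and 22.6 FPKM in knockdown embryos. Its knockdown values thus lay close to those of controls 1 and 2 (log2 change -0.55, 95% interval -2.25 to 1.15, limma adjusted p = 0.822), and 0.20 without control 3. As a share of the gene's FPKM, XM_005660075.3 made up 0%, 0% and 0.236% in control embryos and 47.3%, 49.4% and 52.3% in knockdown embryos. Control 3, which was near the knockdowns for most genes, was with the other controls in this share. A row XM_013993524.2 was at 0.482 FPKM in knockdown 2 and listed at 0 elsewhere. Groups did not overlap in transcript share for 7.7% of 4870 tested rows of genes with more than 1 row above 0. Of the 14 rows called in the table, 8 were under 1 FPKM in every control, and 12 belonged to genes whose summed values overlapped between groups. How the authors' tools divided reads between these 2 PLIN2 models is not stated, and its part in the difference was not tested. A transcribed pseudogene, LOC100737553 (203699143 to 203699927), lies inside the PLIN2 span and was at 2831 to 4349 FPKM in controls and 3276 to 3805 FPKM in knockdowns. Whether strand was used in counting is not stated, so the values of both genes are uncertain.

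**Figure D2:**
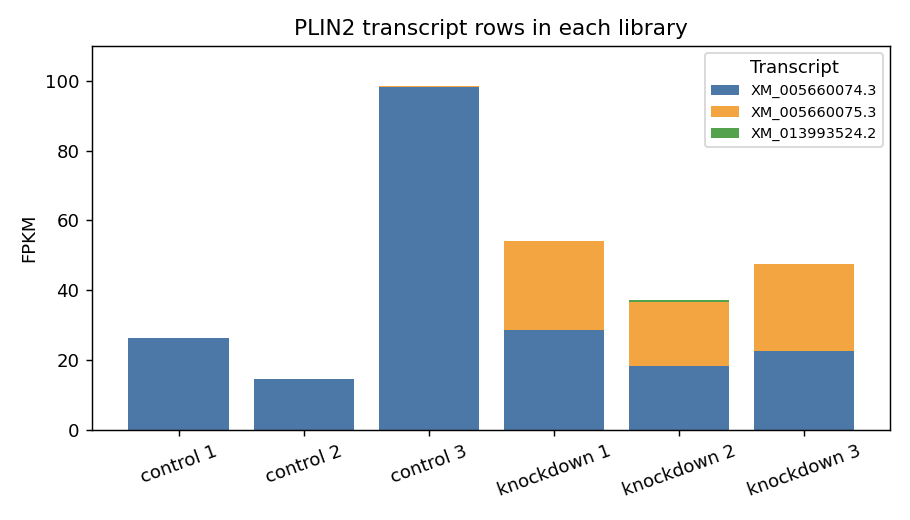
FPKM of the PLIN2 transcript rows above 0, stacked for each library, with 1 bar per library and 1 colour per row. XM_005660075.3 (orange) is at 18.4 to 25.6 FPKM in knockdown embryos and at 0.232 FPKM or listed at 0 in control embryos, while XM_005660074.3 (blue) is highest in control 3.

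PLIN3, a perilipin that moves between cytosol and droplets (chromosome 2, 73970149 to 73995314), was at 0.510, 1.03 and 0.316 FPKM in control embryos and at 0.353, 0.353 and 0.389 FPKM in knockdown embryos. All of it came from 1 of 6 rows, at a coverage of 2.04 to 7.21 reads per base. It was under the minimum for the test, and its log2 change in a fit of all genes above 0 was -0.22 (limma adjusted p = 0.813). The log2 ratio of PLIN2 to PLIN3 within a library, taken like all ratios here on FPKM + 1, was 4.46 (SD 1.66, n = 3) for controls, against 5.10 (SD 0.27, n = 3) for knockdowns (two-sided exact permutation p = 0.6, adjusted p = 0.7 over 5 ratios, where 0.1 is the smallest p that 3 against 3 allows). The difference, knockdown minus control, was 0.64, or 1.53 without control 3. PLIN2 was the higher of the pair in all 6 libraries.

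Of the lipolysis genes, the activator was abundant and the lipases were scarce. ABHD5, the partner that switches on PNPLA2 (chromosome 13, 27006331 to 27053760), was at 5.27, 2.64 and 29.3 FPKM in control embryos. In the knockdowns it was at 23.9, 35.1 and 44.2 FPKM. Controls 1 and 2 were below every other library, and control 3 lay between knockdowns 1 and 2. The mean was 12.4 FPKM (SD 14.7, n = 3) for controls, against 34.4 (SD 10.1, n = 3) for knockdowns, a ratio of 2.77, and the log2 change was 1.96 ± 0.76 (SE, 95% interval 0.15 to 3.76, limma adjusted p = 0.775). Without control 3 it was 2.85 (95% interval 2.01 to 3.69, limma adjusted p = 0.00164), and the knockdown mean was 8.69 times that of controls 1 and 2. With another library left out in place of control 3 it was 1.32 to 2.19 and was not called. Over 16 alternatives the adjusted p was 0.00164 to 0.9998.

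PNPLA2, the lipase that removes the first fatty acid from triacylglycerol (chromosome 2, 513065 to 517962), was at 0.429, 0.370 and 0.290 FPKM in control embryos. In the knockdowns it was at 0.339, 0.457 and 0.202 FPKM, a range that held every control. The coverage behind these values was 1.27 to 4.30 reads per base, on 1 of 3 rows. Its log2 change in the fit of all genes above 0 was -0.04 (95% interval -0.33 to 0.26, limma adjusted p = 0.934). The log2 ratio of PNPLA2 to ABHD5 within a library was -2.13, -1.41 and -4.55 in control embryos and -4.22, -4.63 and -5.23 in knockdown embryos (two-sided exact permutation p = 0.2, adjusted p = 0.667). The difference was -1.99, or -2.92 without control 3. ABHD5 was thus the higher of the pair in all 6 libraries, and the knockdowns lay below controls 1 and 2 and on both sides of control 3.

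LIPE, which takes over after PNPLA2 in fat tissue (chromosome 6, 49543671 to 49560126), was at 0.102 FPKM in control 1, at 0.0124 FPKM in control 2 and listed at 0 in control 3. Knockdown libraries had 0.0977, 0.0660 and 0.0205 FPKM. Its coverage was under 1 read per base in every library, at most 0.685, and the values sat on 2 of 5 rows, of which XM_021093574.1 was above 0 in knockdown 2 alone. The LIPE span overlaps that of ATP5SL, at 0.525 to 3.89 FPKM, so even this level is uncertain. The log2 ratio of PNPLA2 to LIPE was 0.39 (SD 0.04, n = 3) for controls, against 0.33 (SD 0.11, n = 3) for knockdowns (two-sided exact permutation p = 0.4, adjusted p = 0.667). With both genes under 1 FPKM in every library, this ratio depends mainly on the 1 added to each value, and it allows no comparison. The difference was -0.07, or -0.40 with a pseudocount of 0.1. At this depth a difference in LIPE was not detectable.

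Neither enzyme of the last step of triacylglycerol synthesis was at a level that allows a comparison. DGAT1 (chromosome 4, 452890 to 463665) was at 0.0399, 0.0227 and 0.136 FPKM in control embryos and at 0.0927, 0.0629 and 0 FPKM in knockdown embryos, with a coverage of 0.875 reads per base at most. The end of its span overlaps that of HSF1, at 0.548 to 2.24 FPKM. DGAT2 (chromosome 9, 10032163 to 10066082) was listed at 0 on its only row in all 6 libraries. An exact 0 in such a table can be a failed estimate, so this says only how DGAT2 is listed. With DGAT2 at 0 throughout, a ratio of DGAT1 to DGAT2 reflects DGAT1 alone and allows no comparison.

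ACSL3, the acyl-CoA synthetase that sits on nascent droplets and supplies activated fatty acids (chromosome 15, 124741986 to 124816955), was at 361, 356 and 136 FPKM in control embryos. In the knockdowns it was at 169, 257 and 273 FPKM. Controls 1 and 2 lay above every knockdown and control 3 below every knockdown, the reverse of the order seen for PLIN2. The mean was 284 FPKM (SD 128.5, n = 3) for controls, against 233 (SD 56.1, n = 3) for knockdowns, with a log2 change of -0.19 (95% interval -1.26 to 0.89, limma adjusted p = 0.901). Without control 3 it was -0.65 (95% interval -1.28 to -0.03, limma adjusted p = 0.105). The direction turned without control 1, control 2 or knockdown 1, to log2 changes of 0.05, 0.04 and 0.03. Of 4 rows, XM_021074566.1 held all of the gene's FPKM except in knockdown 2, where XM_021074568.1 added 0.929 FPKM or 0.361% of the gene.

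CPT1A, which makes acylcarnitine at the outer mitochondrial membrane and sets the pace of fatty acid oxidation (chromosome 2, 4250642 to 4293914), had an entry of 0 in control 1, with 0.401 FPKM in control 2 and 8.34 FPKM in control 3. In the knockdowns it was at 4.12, 7.18 and 6.63 FPKM. Controls 1 and 2 were below every knockdown and control 3 above every knockdown. The log2 change was 1.54 ± 0.81 (SE, 95% interval -0.38 to 3.46, limma adjusted p = 0.775). It was 2.53 without control 3 (95% interval 1.79 to 3.27, limma adjusted p = 0.00161), and 0.92 to 1.75 with any other library left out, none of which was called. CPT1A reached the minimum of 1 FPKM for the test through the knockdowns and control 3. Its call without control 3 therefore adds little to the values. A pseudocount of 0.1 gave 2.98 and one of 5 gave 0.61, and over 15 alternatives the adjusted p was 0.00161 to 0.9998.

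CPT2, which returns the fatty acid to coenzyme A on the inner side (chromosome 6, 159038129 to 159061327), was at 2.08, 2.26 and 0.915 FPKM in control embryos and at 1.52, 1.41 and 2.02 FPKM in knockdown embryos. Like ACSL3 it was highest in controls 1 and 2 and lowest in control 3, but over a narrower range. Its log2 change was -0.02 (95% interval -0.76 to 0.71, limma adjusted p = 0.986), or -0.26 without control 3 (limma adjusted p = 0.443). The log2 ratio of CPT1A to CPT2 within a library was -1.62, -1.22 and 2.29 in control embryos and 1.02, 1.76 and 1.34 in knockdown embryos (two-sided exact permutation p = 0.4, adjusted p = 0.667). The difference was 1.56, or 2.80 without control 3. The sign of this ratio parted controls 1 and 2 from the other 4 libraries.

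**Figure D3:**
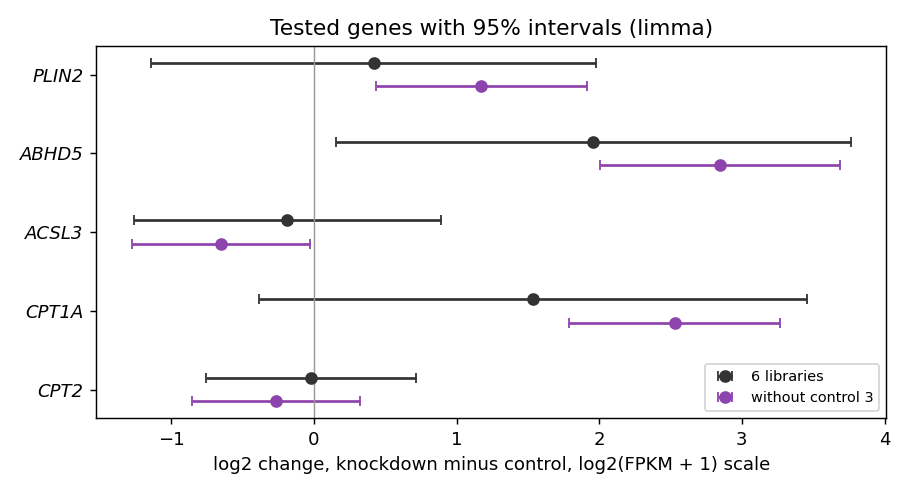
Log2 change of the 5 tested genes, knockdown minus control of log2(FPKM + 1) values, with limma's 95% intervals, for all 6 libraries (black) and without control 3 (purple). The interval of ABHD5 runs from 0.15 to 3.76 with 6 libraries and from 2.01 to 3.69 without control 3, and that of CPT2 holds 0 in both.

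Controls 1 and 2 also stood apart from the other 4 libraries in summed markers of the passage from maternal to embryonic transcripts. A list of 10 genes of genome activation, of which 9 were tested, summed to 53.5, 165 and 455 FPKM in controls 1, 2 and 3 and to 485 to 618 FPKM in knockdowns, with ZSCAN4 listed at 0 in every library. Without control 3, 8 of the 9 passed as higher in knockdowns, against 20.2% of all tested genes, and 4 of 11 oocyte and early embryo markers passed as lower, against 7.22%. One of those called higher, DPRX, was at 0 and 0.623 FPKM in controls 1 and 2. It was tested through the other libraries, so its call adds little to the values. The summed oocyte and early embryo markers gave 3082 FPKM in control 1, 3003 FPKM in control 2 and 1386 FPKM in control 3. Single markers did not all follow the sums. LEUTX, of the genome activation list, was at 87.3 FPKM in control 2 and 78.8 FPKM in control 3. DPPA3, of the oocyte and early embryo list, was highest in control 3, at 467.6 FPKM. The part of this difference between libraries in the values of PLIN2, ABHD5, ACSL3 and CPT1A was not tested.

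Among other tested genes, those nearest to ACSL3 in pattern were PDE3A, FMN1 and PKNOX1, with a root mean square difference of 0.083, 0.086 and 0.086 on the log2 scale over the 6 libraries, each gene centred on its own mean. PDE3A, a phosphodiesterase, was at 10.01, 10.8 and 3.35 FPKM in control embryos and 4.34 to 6.67 FPKM in knockdown embryos. Nearest to PLIN2 were PSMA2, TRDMT1 and MRPS33, at 0.184, 0.199 and 0.201. Nearest to ABHD5 were MED18, FH and DNAJB9, at 0.176, 0.221 and 0.226, with MED18, a subunit of Mediator, at 5.16, 3.50 and 32.4 FPKM in control embryos and 29.0 to 41.8 FPKM in knockdown embryos. ACSL3 had closer neighbours than PLIN2 and ABHD5.

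Other genes of lipid storage and use were taken from 7 lists of 140 genes, and the 3 most abundant tested genes of each list are named. With 6 libraries 0 genes of these lists passed in limma, as for all genes tested. Calls without control 3, in any of the 7 lists, stand beside 20.2% of all tested genes called higher and 7.22% called lower. Genes without overlap between groups stand beside 7.24% of all tested genes. For droplet coat, assembly and size, 7 of 21 genes were tested, 4 above 0 and 3 below, and the median log2 change was 0.32 (0.87 without control 3), where the median of all tested genes was 0.005 and -0.05. HILPDA, an inhibitor of PNPLA2, was far more abundant than that lipase, at 606, 366 and 142 FPKM in control embryos and 249, 287 and 233 FPKM in knockdown embryos. It had a log2 change of -0.31 (limma adjusted p = 0.862), or -0.88 without control 3 (limma adjusted p = 0.0478). RAB18, a small GTPase found on droplets, was at 12.2, 12.8 and 32.1 FPKM in control embryos and 17.0, 34.3 and 47.3 FPKM in knockdown embryos. RAB7A, a small GTPase of late endosomes and lysosomes, was at 28.5, 31.6 and 16.9 FPKM and at 17.1, 22.1 and 25.7 FPKM. Without control 3, the droplet proteins AUP1 and LDAH passed as higher in knockdowns and HILPDA as lower. AUP1 was at 0.519 and 0 FPKM in controls 1 and 2. It reached the minimum for the test through the other libraries, so its call adds little to the values.

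For synthesis of triacylglycerol and steryl esters 9 of 19 genes were tested, 4 above 0 and 5 below, and the median log2 change was -0.25 (0.12 without control 3). Among the tested genes the groups did not overlap for GPAT3, at 1.06 to 1.499 FPKM in controls and 0.597 to 0.749 FPKM in knockdowns. GPAT3 reached the minimum of 1 FPKM for the test through the controls alone, so its lack of overlap adds little to the values. LCLAT1, a lysolipid acyltransferase, was at 25.2, 18.5 and 42.1 FPKM in control embryos and 42.9, 71.8 and 36.5 FPKM in knockdown embryos, and was the only gene of this list past the threshold without control 3 (log2 change 1.13, limma adjusted p = 0.0450). AGPAT5, of the family that makes phosphatidic acid, was at 20.1 to 32.9 FPKM in controls and 18.2 to 34.0 FPKM in knockdowns. SOAT1, which makes cholesteryl esters, was at 6.72, 6.23 and 21.3 FPKM in control embryos and 4.71 to 11.7 FPKM in knockdown embryos.

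Other enzymes and inhibitors of lipolysis (9 of 19 tested) showed a median of log2 changes of -0.02 (-0.05 without control 3), with 4 above 0 and 5 below. PNPLA4, a relative of PNPLA2, was at 66.3, 81.3 and 43.2 FPKM in control embryos and 56.8, 42.0 and 25.8 FPKM in knockdown embryos. The phospholipase DDHD1 was at 32.9 to 41.5 and 35.7 to 44.5 FPKM. PNPLA8, a phospholipase of the same family as PNPLA2, was at 27.1, 26.6 and 21.8 FPKM in control embryos and 30.4, 34.5 and 28.7 FPKM in knockdown embryos, with no overlap between groups and a log2 change of 0.30 (limma adjusted p = 0.788), or 0.20 without control 3 (limma adjusted p = 0.517). LIPG, an endothelial lipase, was the other tested gene of the list without overlap, at 0 to 0.473 FPKM in controls and 0.614 to 8.36 FPKM in knockdowns. It reached the minimum of 1 FPKM for the test through the knockdowns alone, so its lack of overlap adds little to the values. Without control 3, NCEH1, a hydrolase of cholesteryl esters, passed as higher and ABHD4 as lower. NCEH1 was at 0.275 and 0.379 FPKM in controls 1 and 2. It was tested through the other libraries, so its call adds little to the values.

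The list of fatty acid activation, binding and uptake (11 of 20 tested) held the gene with the largest log2 change of the 7 lists, FABP5. This cytosolic fatty acid carrier was at 2.43, 3.59 and 447 FPKM in control embryos and 170, 339 and 406 FPKM in knockdown embryos, which gave a log2 change of 3.91 (limma adjusted p = 0.775), or 6.18 with control 3 left out (limma adjusted p = 0.000134). FABP3, the carrier first known from heart, was at 8.60, 10.2 and 54.7 FPKM in control embryos and 23.97 to 29.7 FPKM in knockdown embryos. For both carriers control 3 was above every knockdown, as it was for PLIN2 and CPT1A. DBI, which binds acyl-CoA, was at 43.8, 29.6 and 26.2 FPKM and at 28.3, 27.6 and 22.6 FPKM. The list had 8 genes above 0 and 3 below, with a median of 0.10 (-0.01 without control 3), and without control 3 FABP5, FABP3 and ACSL6 passed as higher. ACSL6 was at 0.0296 and 0.00625 FPKM in controls 1 and 2. It was tested through the other libraries, so its call adds little to the values.

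Mitochondrial fatty acid oxidation (14 of 21 tested) was evenly split, with 7 genes above 0, 7 below and a median log2 change of 0.02 (0.27 without control 3). ETFA, a subunit of the electron acceptor of acyl-CoA dehydrogenases, was at 416, 246 and 114 FPKM in control embryos and 151, 161 and 126 FPKM in knockdown embryos. ACADM, the medium-chain acyl-CoA dehydrogenase, was at 64.2, 49.96 and 268 FPKM and at 74.8, 137.5 and 169 FPKM. DECR1, a reductase for unsaturated fatty acids, was at 52.8, 64.9 and 21.5 FPKM and at 31.2, 28.7 and 32.2 FPKM. HADHB, of the trifunctional protein, was the tested gene of this list without overlap, at 27.5 to 38.0 FPKM in controls and 19.8 to 26.7 FPKM in knockdowns. Without control 3, ACAA2 and ETFB passed as higher and ETFA, HADH and DECR1 as lower. In controls 1 and 2 ACAA2 was at 0.677 and 0 FPKM, and ETFB at 0 and 0.470 FPKM. These 2 genes were tested through the other libraries, so their calls add little to the values.

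**Figure D4:**
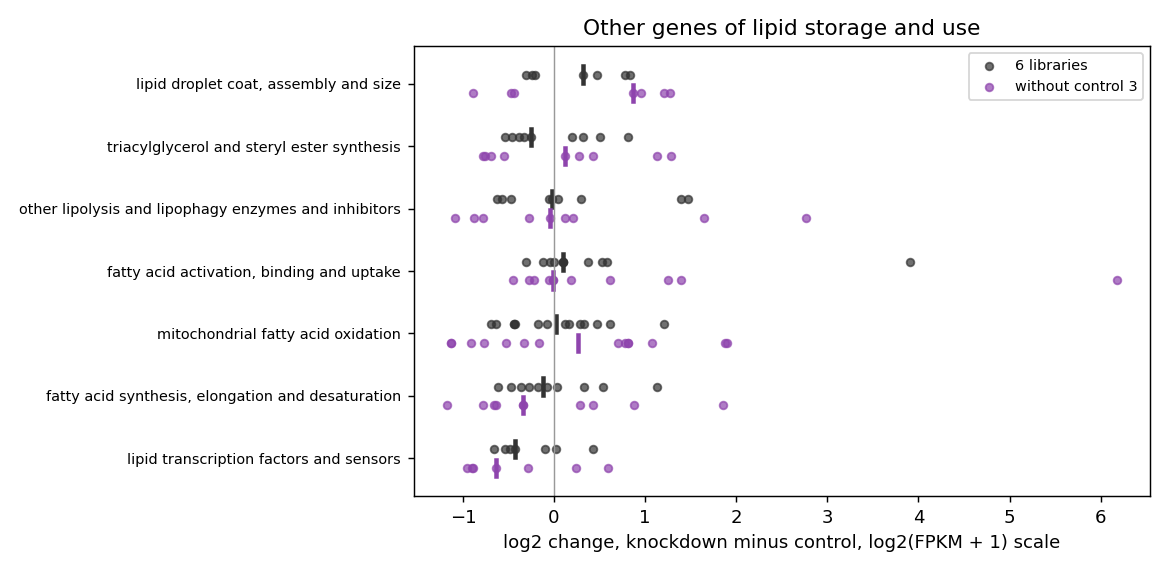
Log2 change of the tested genes of 7 lists of lipid storage and use, knockdown minus control of log2(FPKM + 1) values, with 1 point per gene and a bar at the median, for 6 libraries (black) and without control 3 (purple). FABP5 is the point at 3.91 with 6 libraries and 6.18 without control 3, and the medians with 6 libraries lie between -0.42 and 0.32.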

How the data were processed

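Tools listed, without role or order, in the submitters' processing notes are StringTie 2.1.7, Bowtie2 2.3.5 and cutadapt, with build Sscrofa11.1. Per the file headers, the authors deposited 3 values for each of 81774 transcript rows and library. Coverage is the deposited signal of mean read depth over a transcript. The deposited FPKM is scaled for transcript length and library size, and the deposited TPM sums to 1000000 in each library. A further 9 value columns were left out, since their names match no sample title. FPKM was summed per gene here. Rows holding a number (1758) or a date (129) as name were named by their identifier or accession, and 29850 of 29874 genes were found in the RefSeq table of Sscrofa11.1, the source of coordinates.

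For the test, 10417 genes averaging 1 FPKM or more entered limma 3.58.1 (R 4.3.3) as log2(FPKM + 1). The model held group alone, the prior variance followed a trend, and Benjamini-Hochberg adjustment ran over all of them. Transcript rows were tested likewise, and ratios by exact permutation. The code was tested on simulated data. The genes, lists and markers were chosen with earlier results of these data known. All 10 genes are named, with the 3 most abundant tested genes of each list and the 3 genes nearest in pattern to the 3 most abundant of the 10. AUP1, LDAH, GPAT3, LIPG, NCEH1, ABHD4, ACSL6, HADHB, ACAA2, ETFB, HADH, NR1H2, NR1H3, PRKACB and TECR were named after their values were seen. Replicate numbers are shared by the groups, but same-numbered libraries did not all deviate together.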

Additional observations from a re-analysis of the deposited data

How the results depend on the processing

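The count of the 10 genes past the threshold, of which 5 were tested, was 0 with 6 libraries. It was 3 with array weights (0.113 for control 3) and 0 to 3 with 1 library left out. The count of all genes was 0 of 10417 tested, and 3405 (32.7%) with array weights. It was 0 to 2854 (27.4%) with 1 library left out, being 0 except without control 3. Other pseudocounts, filters and scalings, TPM and no trend left both counts at 0, though the median over all genes was -0.173 under quantile normalization. With 1 library left out, the log2 change ranged from -0.158 to 1.174 for PLIN2, from -0.651 to 0.050 for ACSL3 (-0.653 to 0.049 for its main transcript), from -0.264 to 0.120 for CPT2 and its transcript, and from -1.129 to 0.202 for the PLIN2 row XM_005660074.3. The difference in the log2 ratio of PLIN2 to PLIN3, knockdown minus control, ranged from -0.112 to 1.532. For DGAT1 to DGAT2 this difference ranged from -0.048 to 0.028. With DGAT2 at 0 throughout, it reflects DGAT1 alone, at 0.136 FPKM or less. Why the other ranges held both signs was not tested. Same-numbered libraries correlated at 0.085, 0.063 and 0.226 in their deviations from the group means, and differently numbered ones at -0.189 to 0.111. With 3 libraries per group these values cannot decide whether the numbers pair the samples. With the replicate block 0 genes passed, the log2 change of ABHD5 stayed at 1.958 (limma adjusted p = 0.663), and the PLIN2 row XM_005660075.3 was not called (limma adjusted p = 0.175). With a coverage under 1 read per base, LIPE, DGAT1 and DGAT2 allow no comparison.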

Other observations

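Fatty acid synthesis, elongation and desaturation (10 of 21 genes tested) had 4 genes above 0 and 6 below, and the median log2 change was -0.12, or -0.34 without control 3. HSD17B12, which acts in chain elongation, was at 125.5, 118 and 37.3 FPKM in control embryos and 51.4, 72.9 and 40.6 FPKM in knockdown embryos. ELOVL6, an elongase, was at 93.2, 75.2 and 47.7 FPKM and at 63.3, 69.8 and 65.3 FPKM. HACD3, a dehydratase of the same cycle, was at 43.3, 41.1 and 14.0 FPKM and at 26.1, 22.6 and 23.9 FPKM. Without control 3, HSD17B12 and HACD3 passed as lower and TECR as higher in limma, and with 6 libraries 0 genes of the list passed. For TECR the entry of control 1 was 0 and that of control 2 was 1.68 FPKM, while knockdowns 1, 2 and 3 had 2.71, 6.18 and 6.79 FPKM. Controls 1 and 2 alone would have left its mean short of the minimum of 1 FPKM. The call of TECR therefore says little beyond these values.

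Among transcription factors and sensors of lipid supply (7 of 19 tested), 2 were above 0 and 5 below, and the median log2 change was -0.42, or -0.64 without control 3. INSIG2, a brake on sterol sensing, was at 86.9, 77.3 and 129.8 FPKM in control embryos and 88.4, 76.2 and 134.5 FPKM in knockdown embryos. PRKAA1, a catalytic subunit of AMP-activated kinase, was at 8.77 to 13.4 and 11.8 to 20.7 FPKM. PPARG, the nuclear receptor of fat storage, was at 14.8, 13.0 and 4.69 FPKM and at 8.46, 8.63 and 4.75 FPKM. PRKACB, a catalytic subunit of the kinase that activates lipolysis in fat tissue, was at 8.38, 7.41 and 4.37 FPKM in control embryos and 3.13, 4.31 and 3.92 FPKM in knockdown embryos, with no overlap between groups and a log2 change of -0.66 (limma adjusted p = 0.775). NR1H3 was the other tested gene of the list without overlap, at 0.958 to 1.71 FPKM in controls and 0.478 to 0.944 FPKM in knockdowns. It reached the minimum of 1 FPKM for the test through controls alone, so its lack of overlap adds little to the values. Without control 3, PRKACB and NR1H2 passed as lower.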
